A study of Mus musculus with 745 samples.

Results

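Slc16a1, Slc16a4 and Slc16a9, members of the monocarboxylate transporter family, and Bsg, which encodes basigin, were followed through single brain endothelial cells of young mice. The 4 genes were taken by their symbols from a table of raw read counts with 20607 genes, and all 4 were found in it. The table held 745 cells from mice aged 3 months, labelled as primary brain endothelial cells, which had been released by enzymatic dissociation of brain and isolated by fluorescence-activated cell sorting. By the prefix of their titles the cells fell into 3 sets, and 30.2% were from Young1, 34.6% from Young2 and 35.2% from AY_Y3. The labels name no treatment, genotype, strain or older animals among these cells, so no such comparison was made, and they do not say whether a set is an animal, a pool of animals or a plate. Differences between sets may therefore be technical, and every p-value below measures only the spread between the 3 sets.

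Monocarboxylate transporters carry small organic acids across membranes. MCT1, the product of Slc16a1, moves lactate, pyruvate and ketone bodies together with a proton and is a well-known carrier of the blood-brain barrier, where it supplies ketone bodies to the brain during fasting and suckling. Basigin (CD147) is a single-pass membrane glycoprotein of the immunoglobulin superfamily that escorts MCT1 and MCT4 to the plasma membrane and stays bound to them there. The substrates of MCT5, encoded by Slc16a4, are not well established, and MCT9, encoded by Slc16a9, has been linked to carnitine transport in humans. Along the brain's vessels, endothelial cells change gradually in expression between arteries, capillaries and veins, a pattern known as zonation.

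Slc16a1 and Slc16a4 lie on the same strand of mouse chromosome 3, and Slc16a9 and Bsg on the same strand of chromosome 10. In the GENCODE M21 annotation of GRCm38, Slc16a1 spans chr3:104638668-104658462, Slc16a4 chr3:107291230-107312115, Slc16a9 chr10:70245100-70285968 and Bsg chr10:79704491-79711969, all on the plus strand. Slc16a1 overlaps 2 predicted genes on its own strand (Gm43581 and Gm43585) and Slc16a9 overlaps 2 on the opposite strand (Gm7097 and Gm9877). Whether counting used strand is not given in the sources used here, so reads could not be told apart between these genes and their partners. The bases before the start of Slc16a1 and Slc16a4 are shown because these were the carriers most often detected. They come from RefSeq (GRCm38.p6, plus strand, chr3:104638414-104638663 for Slc16a1 and chr3:107290980-107291229 for Slc16a4), 250 bases each and read 5′ to 3′ towards the gene. Capitals mark matches, on either strand, to the E-box CACGTG, the GC box GGGCGG, the TATA motif TATAA, the CCAAT box, or the TCF/LEF core CTTTGA.
Slc16a1: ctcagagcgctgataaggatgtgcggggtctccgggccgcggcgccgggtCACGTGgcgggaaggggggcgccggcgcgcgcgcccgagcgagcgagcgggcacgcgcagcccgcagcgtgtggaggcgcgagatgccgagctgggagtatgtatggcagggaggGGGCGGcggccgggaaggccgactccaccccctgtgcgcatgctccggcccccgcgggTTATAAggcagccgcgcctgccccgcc
Slc16a4: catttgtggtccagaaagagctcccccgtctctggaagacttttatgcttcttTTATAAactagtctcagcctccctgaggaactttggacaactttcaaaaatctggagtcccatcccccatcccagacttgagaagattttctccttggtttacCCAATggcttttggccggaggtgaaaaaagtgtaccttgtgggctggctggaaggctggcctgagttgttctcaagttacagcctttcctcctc
The Slc16a1 promoter was 76.4% G or C with 37 CpG dinucleotides, against 48% and 2 CpG for Slc16a4. Over all 32851 RefSeq promoter windows of this length the median was 52.4% G or C with 6 CpG, and 96.96% of windows had a lower G or C share than Slc16a1. Slc16a1 held 1 E-box, a motif found in 6.02% of all windows, and 1 GC box, found in 32.7%. A TTATAA stretch, in which TATAA and its reverse complement overlap, ended 21 bases before the Slc16a1 start and lay far upstream in Slc16a4. TATAA was present in 22.8% of all windows. Slc16a4 held 1 CCAAT box, found in 33.8% of windows, and neither carrier held CTTTGA, found in 13.8%. The Slc16a9 window (chr10:70245026-70245275) was 70.4% G or C with 18 CpG and held 3 GC boxes. It runs past the GENCODE start of the gene at 70245100, so part of it lies inside the gene in that annotation. These matches describe the letters only.

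Cells were sequenced deeply but unequally. Total counts per cell ran from 52819 to 2421434, with medians of 757949 in Young1, 713031 in Young2 and 411397 in AY_Y3, so shares of cells with a count are given after each cell was thinned to 50000 counts. Clustering separated 25 pericyte-like cells, leaving 720 endothelial cells. Clusters built from segment markers, none of which was a carrier or Bsg, put 24.7% of them in an arterial-like class (48, 67 and 63 cells in Young1, Young2 and AY_Y3), 14.9% in a venous-like class (34, 37 and 36 cells) and 30.4% in a capillary-like class (68, 70 and 81 cells). The other 30% (67, 74 and 75 cells) lay in 2 clusters without enough raised markers and stayed unnamed. Summed endothelial markers such as Pecam1 and Cldn5 averaged 26808, 23684 and 23727 CPM (counts scaled to a common library total) in arterial-like, venous-like and capillary-like cells, with all 10 of 10 detected in each class. No 2 cells had identical counts, and 731 cells shared a plate position name with a cell of another set.

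Bsg was present in nearly every endothelial cell, and the carriers were not. At 50000 counts per cell, Bsg was detected in 99.1% of Young1 cells, 99.6% of Young2 cells and 99.2% of AY_Y3 cells. Without thinning, 4 of 720 cells had no Bsg count, 2 in Young1 and 2 in AY_Y3. Slc16a1 was detected in 38.2% of Young1 cells (exact 95% binomial interval 31.8 to 45.1%), 47.98% of Young2 cells (41.6 to 54.4%) and 51.8% of AY_Y3 cells (45.4 to 58.04%). Slc16a4 was detected in 34.1% (27.8 to 40.8%), 33.5% (27.6 to 39.7%) and 44.7% (38.5 to 51.04%) of Young1, Young2 and AY_Y3 cells. Slc16a9 was the least often seen, in 17.5% (12.7 to 23.2%), 15.7% (11.4 to 20.9%) and 12.9% (9.08 to 17.7%). The intervals cover counting error only. At full depth the shares over all sets were 54.9% for Slc16a1, 40% for Slc16a4, 20.8% for Slc16a9 and 99.4% for Bsg.

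Levels pooled over the endothelial cells of a set differed less between sets for Bsg than for the carriers. Bsg reached 18036, 17376 and 16942 CPM in Young1, Young2 and AY_Y3. Slc16a1 stood at 272.9, 429 and 393 CPM in the same order, lowest in Young1. Slc16a4 stood at 245.9, 226.1 and 276.3 CPM. Slc16a9 stood at 57.04, 45.4 and 41.8 CPM. Among cells that had any Slc16a1 count, the quartiles were 53.6 and 903 CPM with a median of 333 CPM, and the highest single cell reached 6769 CPM. Among cells with any Slc16a4 count the median was 497 CPM, above that of Slc16a1, although fewer cells had one. For Slc16a9 the median over cells with a count was 62.7 CPM, and the highest cell reached 2995 CPM. Bsg was far more even, with quartiles of 12977 and 23682 CPM.

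To compare levels between genes, pooled CPM was divided by the kilobases of annotated exon of each gene. Per kilobase, Bsg stood at 9943, 9579 and 9339 CPM in Young1, Young2 and AY_Y3. Slc16a1 followed with 61.7, 96.98 and 88.9 CPM per kilobase. Slc16a4 stood at 63.4, 58.3 and 71.2 CPM per kilobase. The sets of these carriers overlapped, so their order could not be set beyond the spread between sets. Slc16a9 lay below both of them at 14.7, 11.7 and 10.8 CPM per kilobase.

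The largest difference along the vessel tree among the 4 genes was that of Slc16a1, which was nearly absent from arterial-like cells. Bsg was lower there too, though still counted in nearly every cell, including 61 of 63 arterial-like AY_Y3 cells at full depth. Slc16a1 pooled to 10.1, 47.8 and 22.5 CPM in arterial-like cells of Young1, Young2 and AY_Y3, against 400, 728 and 470 CPM in capillary-like cells. All 3 arterial-like sums lay below all 3 capillary-like sums. Here and below, such a lack of overlap between 3 and 3 values cannot give an exact two-sided permutation p below 0.1. The share of all genes that separate in this way is not given, so it is a description only. In edgeR's quasi-likelihood test on the summed counts the log2 fold change was -4.53 ± 0.35 (SE, adjusted p = 0.00239), and Slc16a1 fell in 3 of 3 sets. By detection, 4.17%, 13.4% and 17.5% of arterial-like cells of Young1, Young2 and AY_Y3 had a Slc16a1 count. The capillary-like shares were 45.6%, 68.6% and 64.2%. Pooled over sets the shares were 12.4% (exact 95% interval 7.91 to 18.1%) and 59.8% (52.999 to 66.4%), with intervals that leave out the spread between sets. The few arterial-like counts came from few cells, since the 3 highest cells held 99.8%, 70.2% and 64.96% of them in Young1, Young2 and AY_Y3. Bsg pooled to 12931, 12523 and 11224 CPM in arterial-like cells, against 21072, 20938 and 18933 CPM in capillary-like cells. It fell by 0.76 on the log2 scale (SE 0.06, adjusted p = 0.00239), in 3 of 3 sets and with no overlap, while 98.3% of arterial-like and 99.5% of capillary-like cells still had a Bsg count. Among all 9316 genes tested, 1.16% were called in either direction and 0.73% were called lower in arterial-like cells, beside 2 of the 4 genes described here. Without AY_Y3 neither was called, and Slc16a1 and Bsg both had an adjusted p of 0.0603 with log2 fold changes of -4.58 and -0.75. With cells classed by pairs of markers in place of clusters, the Slc16a1 difference was -0.94 with an adjusted p of 0.291. Of the cells that this put in the arterial class, 43.8% had no count of either arterial marker of the pair at full depth.

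Slc16a4 and Slc16a9 also had lower values in arterial-like cells but did not pass the test. Slc16a4 pooled to 41.4, 133.2 and 194.6 CPM in arterial-like cells, against 283, 324 and 280 CPM in capillary-like cells. The groups did not overlap, yet the log2 fold change of -1.39 ± 0.51 (SE) had an adjusted p of 0.385 with edgeR. Slc16a9 pooled to 10.5, 12.5 and 6.66 CPM in arterial-like cells, against 76.8, 91.2 and 55.2 CPM in capillary-like cells, again without overlap (log2 fold change -2.98 ± 1.005, adjusted p = 0.339). Its arterial-like counts were carried almost wholly by 1 cell per set, which held 99.8%, 85.6% and 97.1% of them. DESeq2 and limma called both genes lower in arterial-like cells, with adjusted p of 0.0329 and 0.00262 for Slc16a4 and of 0.014 and 0.0103 for Slc16a9.

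**Figure D1:**
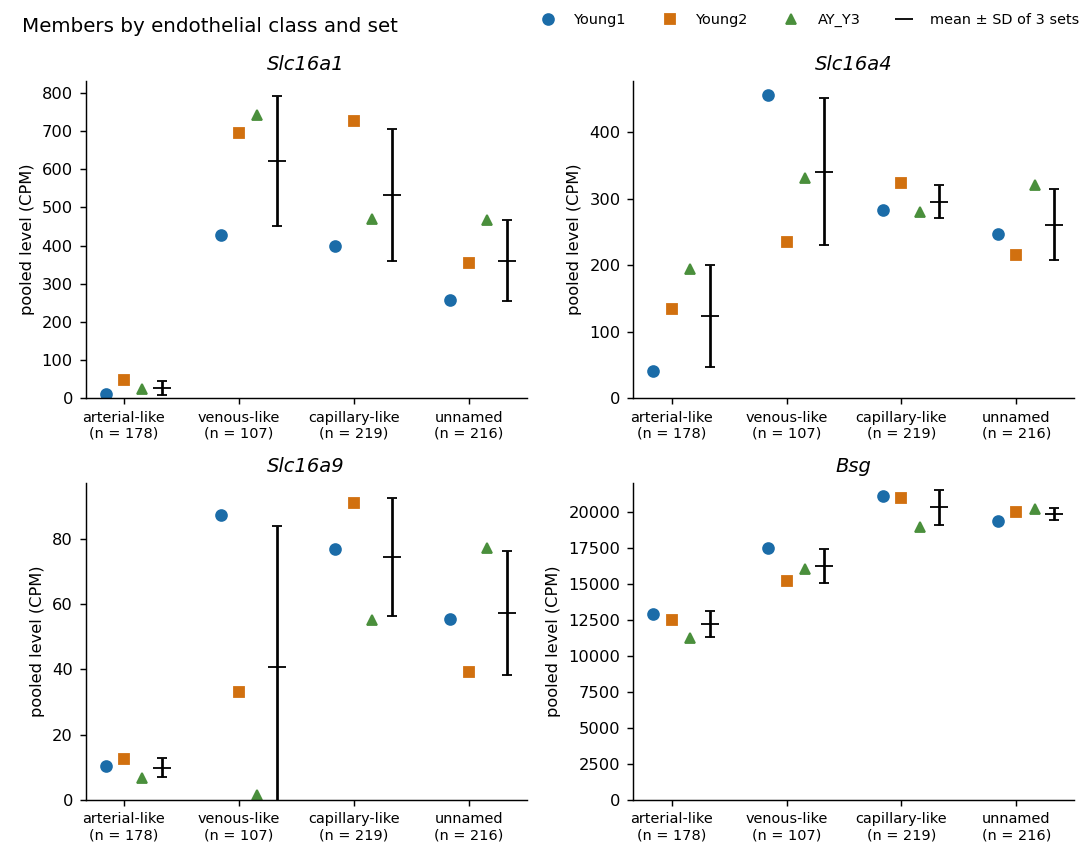
Pooled level in CPM (vertical axis, linear from 0) of each gene in arterial-like, venous-like, capillary-like and unnamed endothelial cells, with 1 symbol per set and the mean ± SD of the 3 sets as black bars, cut at 0. Slc16a1 lay between 10.1 and 47.8 CPM in arterial-like cells and at 257.3 CPM or more in every set of the other groups, whereas Bsg ran from 12226 ± 891 CPM in arterial-like cells to 20315 ± 1198 CPM in capillary-like cells.

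Slc16a1 levels of venous-like cells overlapped those of the capillary-like class, while Bsg values lay lower in venous-like cells of all 3 sets without passing the test. Slc16a1 pooled to 428, 696 and 743 CPM in venous-like cells of Young1, Young2 and AY_Y3, against 400, 728 and 470 CPM in capillary-like cells. The sets overlapped (log2 fold change 0.21 ± 0.30, adjusted p = 0.943 with edgeR). Detection was less even. A Slc16a1 count was found in 85.3%, 81.1% and 86.1% of venous-like cells of Young1, Young2 and AY_Y3. The capillary-like shares were 45.6%, 68.6% and 64.2% in the same order. Pooled over sets the shares were 84.1% (75.8 to 90.5%) and 59.8% (52.999 to 66.4%), with intervals that leave out the spread between sets. Venous-like cells also had more genes detected at equal depth, with a median of 2273 genes against 1661 in capillary-like cells, and the part of this in the Slc16a1 share was not tested. A limma fit on mean log2(CPM + 1) per cell, a scale that weighs detection, called Slc16a1 higher in venous-like cells (log2 difference 1.84, adjusted p = 0.0175). Bsg pooled to 17493, 15201 and 16019 CPM in venous-like cells, against 21072, 20938 and 18933 CPM in capillary-like cells, with no overlap (log2 fold change -0.36 ± 0.06, adjusted p = 0.112 with edgeR). DESeq2 gave Bsg an adjusted p of 0.00069 and edgeR on thinned cells one of 0.023.

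Slc16a4 pooled to 456, 234.9 and 331 CPM in venous-like cells, overlapping the capillary-like values (log2 fold change 0.18 ± 0.49, adjusted p = 0.966 with edgeR). Slc16a9 was the most variable, at 87.4, 32.9 and 1.49 CPM in venous-like cells (log2 fold change -1.60 ± 1.05, adjusted p = 0.844). Its AY_Y3 value rested on 25 counts in 36 cells. None of the 4 genes was called between venous-like and capillary-like cells by edgeR. In this comparison edgeR called 1 gene in all, Cdh13, lower in venous-like cells, which is 0.0107% of those tested, while 634 genes had an unadjusted p under 0.05 and DESeq2 called 2.38%.

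Arterial-like and venous-like cells, the ends of the series, differed in the same pair of genes. Slc16a1 fell in arterial-like cells relative to venous-like cells by 4.73 on the log2 scale (SE 0.35, adjusted p = 0.00124 with edgeR, 3 of 3 sets). Bsg fell by 0.39 (SE 0.06, adjusted p = 0.0171, 3 of 3 sets), with values of 12931, 12523 and 11224 CPM in arterial-like cells against 17493, 15201 and 16019 CPM in venous-like cells. The Bsg call in this comparison was lost whenever 1 set was left out, with adjusted p of 0.139 without Young1, 0.0869 without Young2 and 0.187 without AY_Y3. It was also lost without the set as a block (adjusted p = 0.0512) and with the marker-pair classes (adjusted p = 0.0845). Slc16a4 had a log2 fold change of -1.57 ± 0.52 (adjusted p = 0.244) and Slc16a9 one of -1.38 ± 1.05 (adjusted p = 0.688). Here 2.18% of all genes tested were called and 1.09% were called lower in arterial-like cells. The 3 comparisons share their class sums, so their values are not independent of each other.

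Over all groups the order of mean levels differed between the pair. For Slc16a1 it was arterial-like cells at 26.8 ± 19.2 CPM, venous-like at 622 ± 169.9, capillary-like at 533 ± 172.6 and unnamed at 360 ± 105.5 CPM (SD, n = 3 sets), and the last 3 overlapped. For Bsg it was arterial-like cells at 12226 ± 891 CPM, venous-like at 16237 ± 1161, capillary-like at 20315 ± 1198 and unnamed at 19844 ± 430 CPM, with only capillary-like and unnamed cells overlapping. The pericyte-like cells, with 8, 10 and 7 cells per set, had Bsg at 12032 ± 321 CPM, Slc16a1 at 154.2 ± 97.6 CPM and a Slc16a1 count in 10 of 25 cells. They also carried endothelial markers at 16393 CPM, and the part of that RNA in these values was not tested.

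Within the arterial-like cells Bsg varied further between 2 clusters. The smaller cluster of 38 cells, in which 14 of 16 arterial markers were raised, Gkn3, Gja4, Fbln5 and Cytl1 among them, had 6861, 5387 and 6522 CPM of Bsg in Young1, Young2 and AY_Y3. The larger cluster of 140 cells, in which 10 arterial markers but not those 4 were raised, had 14011, 13570 and 12683 CPM. The sets did not overlap, but an exact two-sided permutation test on 3 against 3 sets cannot give a p below 0.1. Slc16a1 was counted in 2 of 38 cells of the smaller cluster, both in AY_Y3, and in 20 of 140 cells of the larger one. Slc16a4 did not follow this order, with 122.6, 147.9 and 144.6 CPM in the smaller cluster and 26.9, 131.1 and 210.1 CPM in the larger one.

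Arterial-like cells also most often lacked all of the carriers. Of arterial-like cells, 65.7% had none of the 3 carriers at 50000 counts and 6.18% had 2 or 3. Of venous-like cells 8.41% had none, and of capillary-like cells 20.5% had none. Exactly 2 carriers were counted in 49.5% of venous-like and 33.3% of capillary-like cells. All 3 were counted in 35 of 720 endothelial cells, none of them arterial-like.

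**Figure D2:**
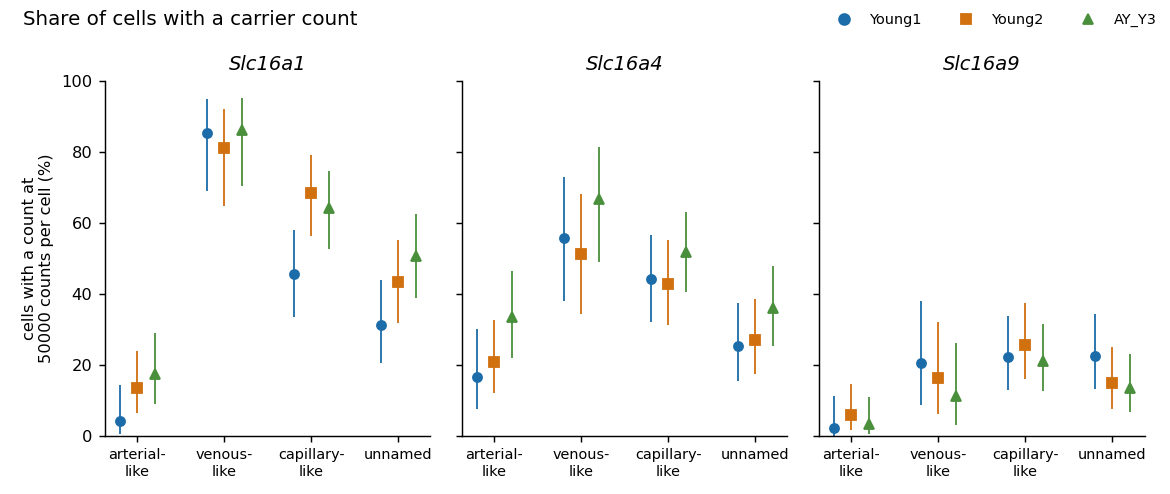
Share of cells with a count of each carrier after thinning to 50000 counts per cell (vertical axis, percent), by class and set, with exact 95% binomial intervals as vertical lines. For Slc16a1 the highest arterial-like interval ends at 29.1% and the lowest venous-like interval starts at 64.8%, whereas the venous-like, capillary-like and unnamed intervals of Slc16a9 overlap.

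Counts of genes listed as markers of other cell types also differed between the classes, and whether they are RNA of such cells was not tested. Summed pericyte markers ranged from 68.8 to 384 CPM over the arterial-like sets, 389 to 764 CPM over the venous-like sets and 405 to 656 CPM over the capillary-like sets, with 2, 0 and 1 of 10 markers at 0. Summed smooth muscle markers ranged from 147.6 to 382, 14.1 to 696 and 7.76 to 21.4 CPM in the same classes, with 1 of 8 at 0 in capillary-like cells. The 7 neuronal markers ranged from 344 to 492 CPM in arterial-like cells and reached at most 31.1 CPM in the others. Nearly all of that was Stmn2, at 379 ± 44.8 CPM, with Tubb3 and Slc17a7 at 0. The 7 oligodendrocyte markers reached 2862 CPM in 1 capillary-like set. Leaving out the 37 cells highest in mural markers or the cells over 1000 CPM of astrocyte markers kept Slc16a1 and Bsg called lower in arterial-like cells, and the part of the other lists in these differences was not tested.

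Levels were also read along single markers, without clusters, with a marker count taken after thinning. In cells with a count of Bmx, an arterial kinase gene, Slc16a1 stood at 45.9, 20.2 and 68.2 CPM in Young1, Young2 and AY_Y3, against 305, 528 and 475 CPM in cells without one. In cells with Gkn3, another arterial marker, it stood at 13.96, 87.8 and 21.6 CPM, against 288, 463 and 433 CPM in cells without it. Both markers separated the sets completely for Slc16a1. Bsg stood at 12185, 14024 and 11953 CPM in Bmx cells, against 18859, 18185 and 18194 CPM in cells without Bmx, and Gkn3 gave 13028 ± 1929 against 17797 ± 591 CPM (SD, n = 3). Slc16a4 averaged 109.4 ± 66.1 CPM with Bmx and 277 ± 25.6 CPM without it. Slc16a9 averaged 6.79 ± 6.06 CPM with Bmx and 56.2 ± 7.84 CPM without it. Gkn3 was counted in 56 endothelial cells, and 603 had no Bmx count. The Gkn3 cells numbered 8, 26 and 22 in Young1, Young2 and AY_Y3, and 12.5% of those in Young1 had a Slc16a1 count.

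Slc16a1 was higher in cells with a venous marker in every set, and Bsg was not. The cells without one include arterial-like cells, in which Slc16a1 averaged 26.8 ± 19.2 CPM, and their part in this difference was not tested. Between venous-like and capillary-like cells edgeR did not call Slc16a1 (adjusted p = 0.943), though limma called it higher. Cells with Il1r1, the interleukin-1 receptor, had 518, 690 and 618 CPM of Slc16a1, against 230, 375 and 345 CPM in cells without it. Cells with Nr2f2, the venous transcription factor COUP-TFII, had 342, 596 and 687 CPM, against 258.8, 387 and 343 CPM in cells without it. Each set was higher with the marker, although the Nr2f2 groups overlapped between sets. Slc16a4 averaged 397 ± 84.3 CPM with Nr2f2 and 219.8 ± 26.998 CPM without it, and was counted in 67.2% of cells with Nr2f2 and 31.95% of cells without it. Bsg averaged 17130 ± 160 CPM with Nr2f2 and 17521 ± 629 CPM without it, values that overlapped. With Il1r1 it stood at 16740, 15542 and 16758 CPM, against 18265, 17760 and 16982 CPM without it, lower with no overlap. Slc16a4 was not higher with Il1r1 in every set, since Young2 had 216.99 CPM with it and 228.1 CPM without it.

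Both capillary markers separated the sets for Bsg, and neither did for Slc16a1. Cells with and without a marker were not split by class, and the part of class mix in these differences was not tested. Cxcl12 was counted in 627 of 720 cells. Bsg stood at 18594, 18037 and 17691 CPM in cells with Cxcl12, against 14225, 12286 and 11852 CPM in the 93 cells without it, with no overlap. Slc16a1 averaged 373 ± 86.9 CPM with Cxcl12 and 307 ± 72.6 CPM without it. It was higher with Cxcl12 in every set, at 277.3, 447 and 395 CPM against 242.7, 292 and 386 CPM, but the groups overlapped. For Rgcc, the other capillary marker, Bsg stood at 18423, 17926 and 18022 CPM in cells with a count, against 17305, 16451 and 13718 CPM in cells without one, again with no overlap. With Rgcc, Slc16a1 averaged 385 ± 91.3 CPM, and without it 308 ± 110.9 CPM. Slc16a1 was higher with Rgcc in Young1 and AY_Y3 but not in Young2 (426 against 435 CPM). Split into 3 equal bins by the mean log2(CPM + 1) of Cxcl12 and Rgcc within each set, Bsg averaged 14378 ± 1160 CPM in the lowest bin, 17839 ± 453 in the middle and 20063 ± 286 CPM in the highest. Slc16a1 averaged 350 ± 47.2, 454 ± 111.7 and 297 ± 111.2 CPM over the same bins, highest in the middle bin in every set. The arterial and venous pair scores were at 0 in all cells of their lower bins, so only the highest bin is read, in which 33.1% of cells for the arterial pair and 22.2% for the venous pair still had no count of either marker at full depth. There Slc16a1 averaged 190 ± 65.9 CPM for the arterial pair and 438 ± 89.1 CPM for the venous pair, and Bsg 15286 ± 1206 and 17145 ± 703 CPM. The pair classes gave each cell to its highest score, and in 21.7% of the 720 cells the next score was less than 0.25 SD away.

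**Figure D3:**
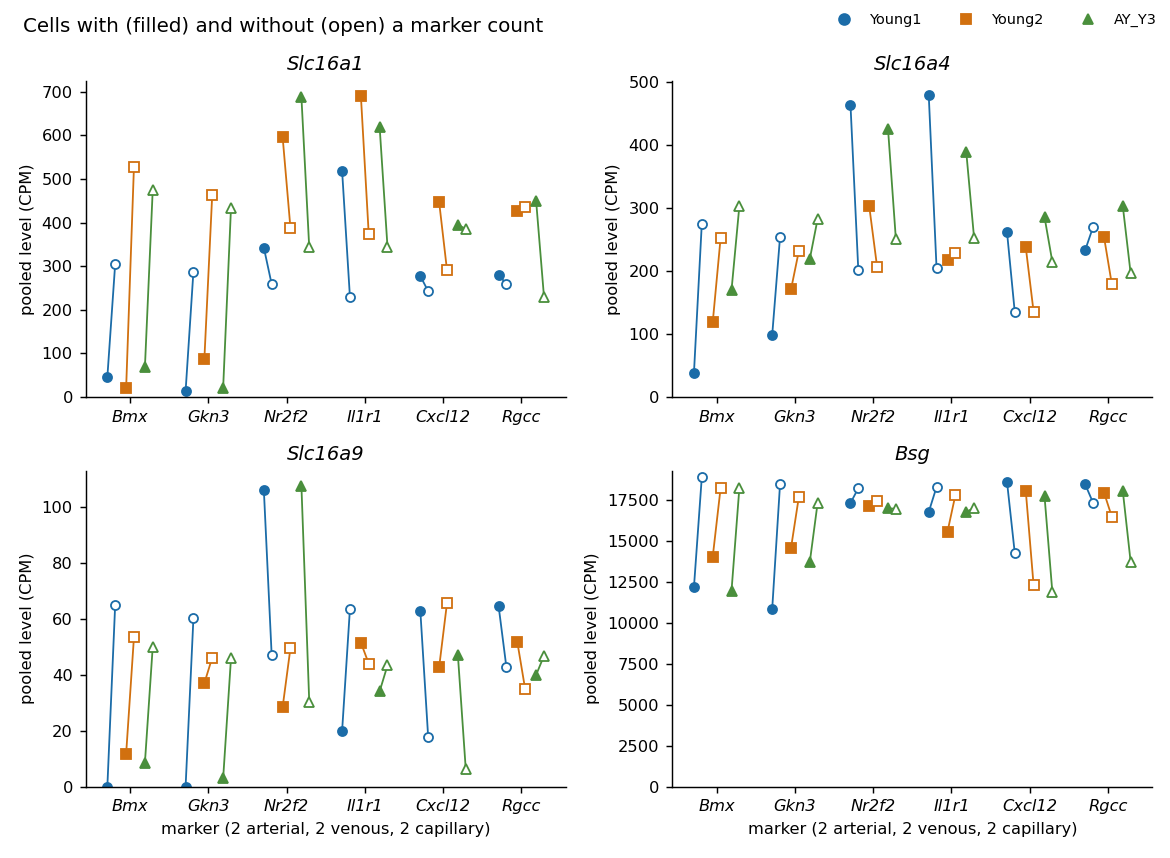
Pooled level in CPM (vertical axis) of each gene in endothelial cells with a count of a marker (filled) and without one (open), joined within each set, for 2 arterial, 2 venous and 2 capillary markers. Slc16a1 lay lower with Bmx and Gkn3 and higher with Nr2f2, Il1r1 and Cxcl12 in every set. Bsg lay lower with Bmx, Gkn3 and Il1r1 and higher with Cxcl12 and Rgcc in every set.

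Bsg and Slc16a1 were positively related over cells, but loosely. Every cell with a Slc16a1 count at 50000 counts also had a Bsg count, in a population where nearly all cells did. Over endothelial cells the Spearman rho of thinned levels was 0.18 in Young1, 0.30 in Young2 and 0.34 in AY_Y3, over all endothelial cells of each set (720 in all). The points are cells of 1 set that share library preparation, and the values are given as a description. Total counts had a Spearman rho between -0.14 and -0.06 with Bsg CPM and between -0.05 and 0.11 with Slc16a1 CPM. Median Bsg was 20787 CPM in Young1 cells with Slc16a1 and 18238 CPM in those without it. It was 20283 and 15701 CPM in Young2 cells with and without Slc16a1, and 19344 and 14731 CPM in those of AY_Y3.

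Within the named classes most values were lower. Among capillary-like cells rho was 0.18, 0.14 and 0.10 in Young1, Young2 and AY_Y3 (n = 68, 70 and 81). Among venous-like cells, the class with the largest share of Slc16a1-positive cells, it was -0.27, 0.02 and 0.01 (n = 34, 37 and 36). Among arterial-like cells it was -0.04, 0.13 and 0.21, resting on 2, 9 and 11 cells with Slc16a1. The unnamed cells kept the values of the whole, at 0.15, 0.26 and 0.39 (n = 67, 74 and 75). In sparse counts such weak values are no finding in themselves. Bsg was higher in Slc16a1-positive than in Slc16a1-negative capillary-like cells of Young1 (23189 against 19522 CPM, medians) and Young2 (22955 against 18351 CPM), and nearly equal in AY_Y3 (19550 against 19332 CPM).

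Endothelial cells were also ranked by Bsg and cut into 4 equal bins within each set. From the lowest to the highest bin, Slc16a1 pooled to 82.9, 231.8, 421 and 374 CPM in Young1, to 187.6, 379, 477 and 728 CPM in Young2 and to 105.7, 356, 486 and 668 CPM in AY_Y3. Slc16a1 was lowest in the lowest bin of every set and highest in the top bin of Young2 and AY_Y3 but not of Young1. Slc16a4 pooled to 143.7, 120.7 and 131.9 CPM in the lowest bins of Young1, Young2 and AY_Y3, against 226.1 to 276.3 CPM in the sets as a whole. Arterial-like cells made up 49.1%, 56.5% and 57.8% of the lowest bin in Young1, Young2 and AY_Y3, and 11.1%, 3.23% and 3.17% of the highest.

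**Figure D4:**
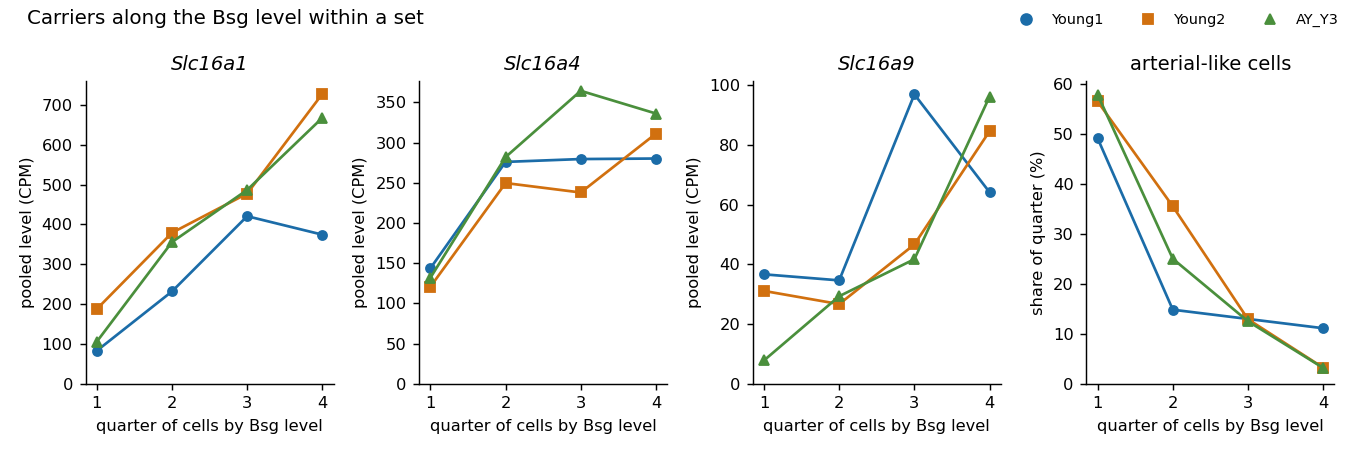
Pooled level of each carrier in CPM, and the share of arterial-like cells in percent (vertical axes), over 4 equal bins of the endothelial cells ranked by Bsg CPM within each set (horizontal axis, 1 the lowest), with 1 line per set. Slc16a1 started between 82.9 and 187.6 CPM in the lowest bin, where arterial-like cells made up 49.1 to 57.8% of the cells.

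Among 2532 other genes (2533 for Slc16a9) counted in at least 20% of the endothelial cells of every set, Bsg ranked 31 in likeness to Slc16a1 and Slc16a1 ranked 27 in likeness to Bsg, by mean Spearman rho over the 3 sets. The genes most like Slc16a1 were Car4 (mean rho 0.47), which encodes the membrane carbonic anhydrase IV and was also a capillary marker, Tmsb10 (0.47), Gatm (0.44), Ndnf (0.42) and Slc22a8 (0.41), the organic anion carrier OAT3. The genes most like Bsg were Pglyrp1 (0.49), Gatm (0.44), Slc22a8 (0.44), the capillary marker Itm2a (0.41) and Pltp (0.39), the phospholipid transfer protein. Gatm and Slc22a8 stood on both lists. Slc16a4 had no close match, with Itm2a at 0.21, the transferrin receptor gene Tfrc at 0.20, the venous marker Slc38a5 at 0.20, Ndnf at 0.20 and Car4 at 0.19. For Slc16a9 the closest were Gatm at 0.20, Ccdc141 at 0.19, Apcdd1 at 0.18, Slc16a1 at 0.18 and Ttyh2 at 0.17.

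The other carriers were counted more often in cells with Slc16a1. Slc16a4 was counted in 48.5% of cells with Slc16a1 (exact 95% interval 43.03 to 54.01%) and 28.2% of cells without it (23.8 to 33.01%). Slc16a9 was counted in 21.3% of cells with Slc16a1 (16.99 to 26.04%) and 10.1% of cells without it (7.28 to 13.6%). The direction was the same in each of the 3 sets for both pairs. These shares pool all classes and sets, and the part of class mix in them was not tested. With Slc16a4, the Spearman rho of Slc16a1 was 0.50, 0.23 and -0.10 in arterial-like cells of Young1, Young2 and AY_Y3. It was -0.04, 0.24 and 0.002 in venous-like, 0.13, 0.11 and 0.12 in capillary-like and -0.01, 0.09 and 0.06 in unnamed cells. With Slc16a9 it was -0.03, -0.10 and -0.08 in arterial-like, 0.28, 0.29 and 0.13 in venous-like and 0.29, 0.04 and 0.11 in capillary-like cells. For this pair the unnamed cells gave 0.20, 0.15 and -0.11. Over all endothelial cells, Slc16a4 and Slc16a9 had a Spearman rho of 0.16, -0.03 and 0.13 in Young1, Young2 and AY_Y3.

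Slc16a3, Slc16a7 and Emb were counted in few endothelial cells. Slc16a3, which encodes MCT4, the other partner of basigin, was counted in 10 of 720 endothelial cells at full depth, and Slc16a7, which encodes MCT2, in 8. Emb, encoding embigin, an alternative escort of monocarboxylate transporters, had no count in arterial-like, venous-like or capillary-like cells and 5 counts in 2 unnamed cells.

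Among genes listed with basigin, both subunits of the large neutral amino acid carrier were lower in the same comparison. Slc3a2, encoding the CD98 heavy chain, averaged 736 ± 124.8 CPM in arterial-like cells and 2307 ± 270 CPM in capillary-like cells (SD, n = 3). It fell by 1.69 on the log2 scale (SE 0.20, adjusted p = 0.00914 with edgeR). Slc7a5, encoding the light chain LAT1, averaged 93.2 ± 38.5 CPM in arterial-like cells and 464 ± 39.6 CPM in capillary-like cells, and fell by 2.38 (SE 0.29, adjusted p = 0.0103). Both also fell against venous-like cells, by 1.21 and 2.04 with adjusted p of 0.0236 and 0.0134. The other 7 of the 9 tested genes of that list were not called between arterial-like and capillary-like cells, where 1.16% of all genes were, among them the cyclophilin gene Ppia at 857 ± 101.4 CPM in arterial-like cells, against 893 ± 50.3 CPM in capillary-like cells. The median log2 fold change of that list between arterial-like and capillary-like cells was -0.09, beside -0.01 over all genes tested.

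Genes of lactate and creatine metabolism were also listed. Ldha, the lactate dehydrogenase A subunit, averaged 1399 ± 218.2 CPM in arterial-like cells, against 1509 ± 368 CPM in capillary-like cells (log2 fold change -0.11 ± 0.13). Ldha did not pass the test. Of 7 tested genes around carnitine and creatine, 1 was called, in both comparisons with arterial-like cells, beside 1.16% of all genes tested against capillary-like cells and 2.18% against venous-like cells. Gatm, which catalyses the first step of creatine synthesis, averaged 202.1 ± 56.2 CPM in arterial-like cells and 1694 ± 321 CPM in capillary-like cells and fell by 3.12 (SE 0.24, adjusted p = 0.00239). Against venous-like cells it fell by 2.87 (adjusted p = 0.00166). That list's median was -0.20. No gene of these lists was called between venous-like and capillary-like cells with edgeR. Many of the calls of Slc3a2, Slc7a5 and Gatm were lost with 1 set left out, with the directions kept. Without AY_Y3 the arterial-like to capillary-like calls of Slc3a2, Slc7a5 and Gatm were lost, with adjusted p of 0.157, 0.113 and 0.0603. Without Young2 those of Slc7a5 and Gatm were lost (0.196 and 0.0616). Against venous-like cells, leaving out Young2 ended all 3 calls, with adjusted p of 0.0506 for Slc3a2, 0.1798 for Slc7a5 and 0.0594 for Gatm. There Slc3a2 and Slc7a5 were also lost without AY_Y3 (0.238 and 0.157), and Slc3a2 without Young1 (0.134). Slc3a2 was not called there with no filter on low counts (0.0703), nor at Leiden resolution 2 (0.0889).

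**Figure D5:**
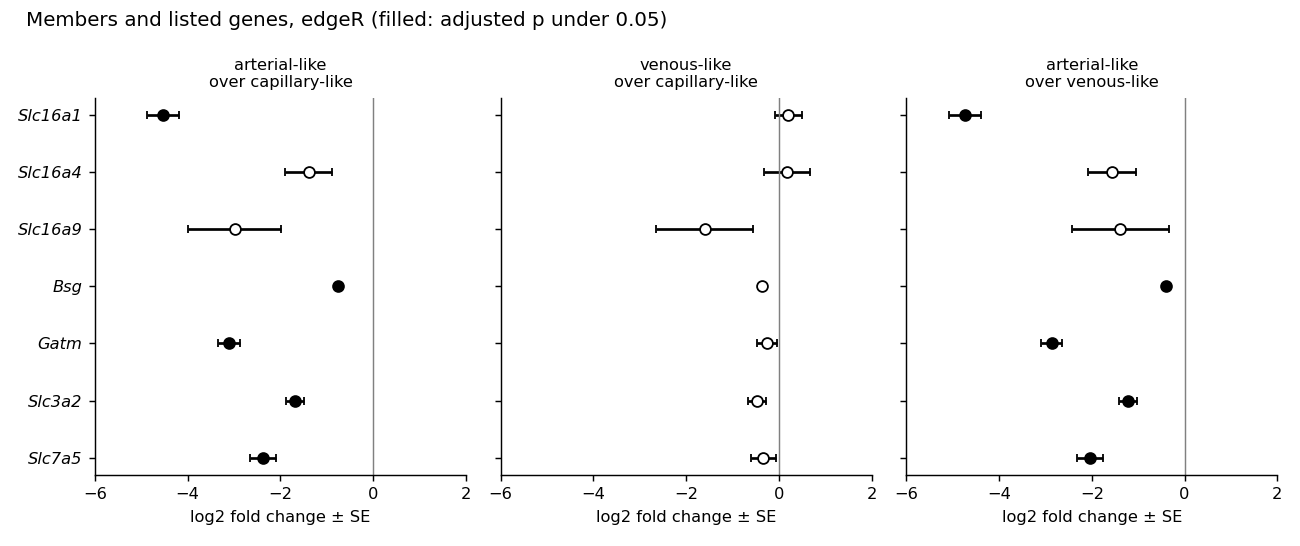
Log2 fold change ± SE (horizontal axis) from edgeR for the 4 genes and for Gatm, Slc3a2 and Slc7a5, in 3 comparisons of classes, with filled symbols for an adjusted p under 0.05. Slc16a1 stood at -4.53 and -4.73 in the 2 arterial-like comparisons and at 0.21 between venous-like and capillary-like cells.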

How the data were processed

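The deposited table held raw counts per gene, made by the authors, for 745 cells, and each GEO sample was 1 cell. Bowtie 0.12.2 and the builds mm8 and mm10 are named per the submitters' processing notes, without roles; the counter, annotation, use of strand and molecular identifiers are steps that the sources used here do not give. Counts were read as deposited, and each column matched 1 sample by its title. Cells were clustered with Leiden (leidenalg 0.10.2, resolution 1, 10 principal components, 15 neighbours; 2000 variable genes for cell types, then segment markers alone, scaled within sets). A cluster was named when at least 3 markers of 1 class were raised 1.25 times in 25% of its cells and no other class led its top 10 genes by fold. Doublets were not called. Pooled CPM is the summed count of a gene scaled by the summed total. Counts were summed per set and class (9 sums) and tested with edgeR 4.0.16 (R 4.3.3) with TMM scaling, class and set as terms, genes kept by filterByExpr and a count in 5% of cells, and Benjamini-Hochberg adjustment over all genes at 0.05; segment markers stayed out. DESeq2 1.42.0 and limma 3.58.1 (pseudocount 1) were alternatives. The SE given with edgeR results was worked back from the test, as the absolute log2 fold change divided by the square root of F. The set is a block because each class came from each set. The code was tested on simulated data. Besides the 4 members, the text names listed genes called by the test (some results are not reported here) and the 5 genes most like each member; Cdh13, Ppia, Ldha and the other list genes given with values were picked after their values were seen. The members and lists were chosen with earlier results of these data known.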

Additional observations from a re-analysis of the deposited data

How the results depend on the processing

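The share of genes called, given as percent of the genes tested, moved with the tool, the classes and the sets used. Between arterial-like and capillary-like cells it was 1.16%, against 5.75% with DESeq2, 0.279% with no filter on low counts, 3.29% on thinned cells, 5.95% with limma on mean log2(CPM + 1), 0.185% with marker-pair classes and 0 to 0.463% with 1 set left out. Between venous-like and capillary-like cells it was 0.0107%, against 2.38%, 0.398% and 9.18% with DESeq2, thinned cells and limma, 0.0435% with pair classes, 0.0322% without the cells highest in mural markers, 0.0985% with unnamed clusters in the fit and 0 to 0.0216% with 1 set left out. Between arterial-like and venous-like cells it was 2.18%, against 7.70% with DESeq2, 0.502% unfiltered, 3.85% thinned, 14.4% with limma, 1.28% with pair classes and 0.215 to 0.981% with 1 set left out. Without the replicate block the venous-like to capillary-like share was 0.0322% and Bsg between arterial-like and venous-like cells was -0.39 (adjusted p 0.0512); no other call of the 4 genes changed. The alternatives without astrocyte-high cells and with unnamed clusters were chosen after seeing the data.

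In log2 fold changes, arterial-like over capillary-like, Slc16a1 was -0.94 with pair classes (adjusted p 0.291) and -4.86 to -4.17 with 1 set left out. Slc16a4 was called with DESeq2 (-1.38), thinned cells (-1.43) and limma (-2.19), and Slc16a9 with DESeq2 (-2.97) and limma (-1.43). Bsg ranged from -0.79 to -0.73 with 1 set left out. Venous-like over capillary-like, limma called Slc16a1 (1.84), and leaving sets out gave -0.032 to 0.32. Slc16a4 was -0.089 at Leiden resolution 2 and -0.17 to 0.48 with 1 set left out, Slc16a9 was 0.13 with pair classes, and Bsg was called with DESeq2 (-0.36) and thinned cells (-0.38). Arterial-like over venous-like, Slc16a4 was called with DESeq2 (-1.56), thinned cells (-1.51) and limma (-3.08), and Slc16a9 with limma (-1.02) and pair classes (-2.81). Bsg was -0.22 with pair classes and -0.44 to -0.33 with 1 set left out. Leiden resolution 0.5 gave no venous-like class, so only the first comparison could be made there. The cause of these changes was not tested.

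Without thinning, Slc16a1 was counted in 48.8%, 54.8% and 60% of Young1, Young2 and AY_Y3 cells, Slc16a9 in 23.5% and 22.98% of Young1 and Young2 cells, and Bsg in 100% of Young2 cells. Taken within a class in place of all endothelial cells of a set, the Bsg and Slc16a1 rho of thinned levels was -0.036, 0.13 and 0.21 within arterial-like cells, -0.27, 0.018 and 0.0061 within venous-like cells, and 0.14 and 0.10 within capillary-like cells of Young2 and AY_Y3. Some Slc16a9 sums rested almost wholly on 1 cell, and shares of cells with a count depend on depth.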

Other observations

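Among listed genes too sparse to test, a pair was counted in more arterial-like cells than venous-like or capillary-like cells. The unnamed cells are not compared here. Slc22a4, which encodes the organic cation carrier OCTN1, stood at 61.5 ± 25.3 CPM in arterial-like cells (SD, n = 3 sets), where 16 cells had a count. It had a count in 1 venous-like cell and in 0 capillary-like cells, which allows a share of up to 1.37%. Hcar1, which encodes a lactate receptor, stood at 25.1 ± 17.7 CPM in arterial-like cells, with a count in 7 cells, against 0 venous-like cells, which allows a share of up to 2.80%, and 3 capillary-like cells. Both were picked after their values were seen and were not tested.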
